A study of Caenorhabditis elegans with 18 samples.

Results

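The cytosolic ribosome of *Caenorhabditis elegans* was followed here through the genes for its proteins, on arrays of worms fed 3 different bacteria for 10 or 3 days. The members were chosen by name alone: every probe set whose annotation gives a single gene symbol made of rpl- or rps- and a digit. This rule found 111 of 22625 probe sets, which read 75 genes. Of these, 66 probe sets read 45 rpl- genes of the large subunit and 45 probe sets read 30 rps- genes of the small subunit. The genes of the mitochondrial ribosome (mrpl- and mrps-) were left out by the rule, as were 3 probe sets that carry the symbols of several genes.

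A ribosome is built from a small subunit, which reads the messenger RNA, and a large subunit, which joins the amino acids. Each protein is needed in about the same number of copies, so their genes are usually expressed at high and similar levels. In animals, their output follows the demand for growth and egg production, and lowered translation is known to go with long life in *C. elegans*. A few ribosomal proteins of the worm are encoded by a pair of genes on different chromosomes. The X chromosome of the worm is largely silent in part of the germ line, and the germ line makes up much of the RNA of a fertile adult.

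The worms were of the wild-type strain N2, which is hermaphrodite, and the labels set the groups apart by the food and its duration. They were fed *Lactobacillus rhamnosus* CNCM I-3690, *Lactobacillus rhamnosus* CNCM I-4317 or, as the control diet, *Escherichia coli* OP50, and RNA was taken after 10 days or after 3 days, when the worms were young adults. Populations were synchronized from embryos taken from gravid adults. How the adults of 10 days were kept apart from their progeny is not given in the sources used here for the array samples. Each of the 6 groups had 3 Affymetrix arrays, 18 in all, each hybridised with RNA from a population of whole worms. Where a whole-worm value differs between groups, fewer cells of a type and less RNA per cell cannot be told apart. Whether the samples of a group came from separate cultures is not clear from the labels, so the p-values measure the spread between these samples.

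Values are log2 intensities after robust multi-array averaging. They ran between -0.06 and 11.96, with array medians between 1.27 and 1.40. Arrays of a group correlated at r = 0.981 to 0.996, and the largest principal component (59.5% of the variance) separated the 10-day from the 3-day arrays. The array of replicate 1 on OP50 at 10 days stood apart in the lists of tissue genes: its 20 muscle probe sets had a mean log2 value of 4.07, against 2.96 and 2.96 on the other arrays of its group and 4.40 to 4.47 on the 3 arrays of OP50 at 3 days. Values of the X-linked members that rest on this array are given with and without it.

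The ribosomal protein probe sets were among the brightest of the array. The median over the 111 probe sets lay between 10.02 and 10.25 on the 18 arrays, at the 99.5th to 99.7th percentile of all probe sets. By their mean over the arrays, 100 of the 111 lay above 9, where 144 other probe sets were found. The highest were a probe set of *rpl-21* (mean 10.88), a probe set of *rpl-8* (10.85) and a probe set of *rpl-24* (10.82). Levels of different probe sets also depend on the probes, so this order is of signals and not of transcripts. A few probe sets did not follow the rest: 1 probe set of *rpl-8* (mean 0.61) and 1 of *rpl-42* (1.13) lay below the median of every array, and 1 of *rpl-12* was at 2.31 although the other probe sets of that gene were at 10.08 and 10.30. Such probe sets say little about their gene.

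Members varied little between replicates. The median SD within a group was 0.0844 log2 units for the 100 members above 9, 0.142 for the 144 other probe sets above 9 and 0.171 for all probe sets. Over the 18 arrays, the median range of a member above 9 was 0.415, against 0.793 for the other probe sets of that brightness. The members with the widest range were the 2 probe sets of *rpl-11.2* (1.44 for the brighter and 1.40 for the dimmer) and that of *rpl-23A.1* (1.36). These 3 probe sets were also the least correlated with the median of all members over the 18 arrays (r = -0.57, -0.56 and -0.52, as a description), followed by *rpl-19* at -0.15. Both genes lie on the X chromosome, and they are the 2 X-linked genes among the 75.

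**Figure D1:**
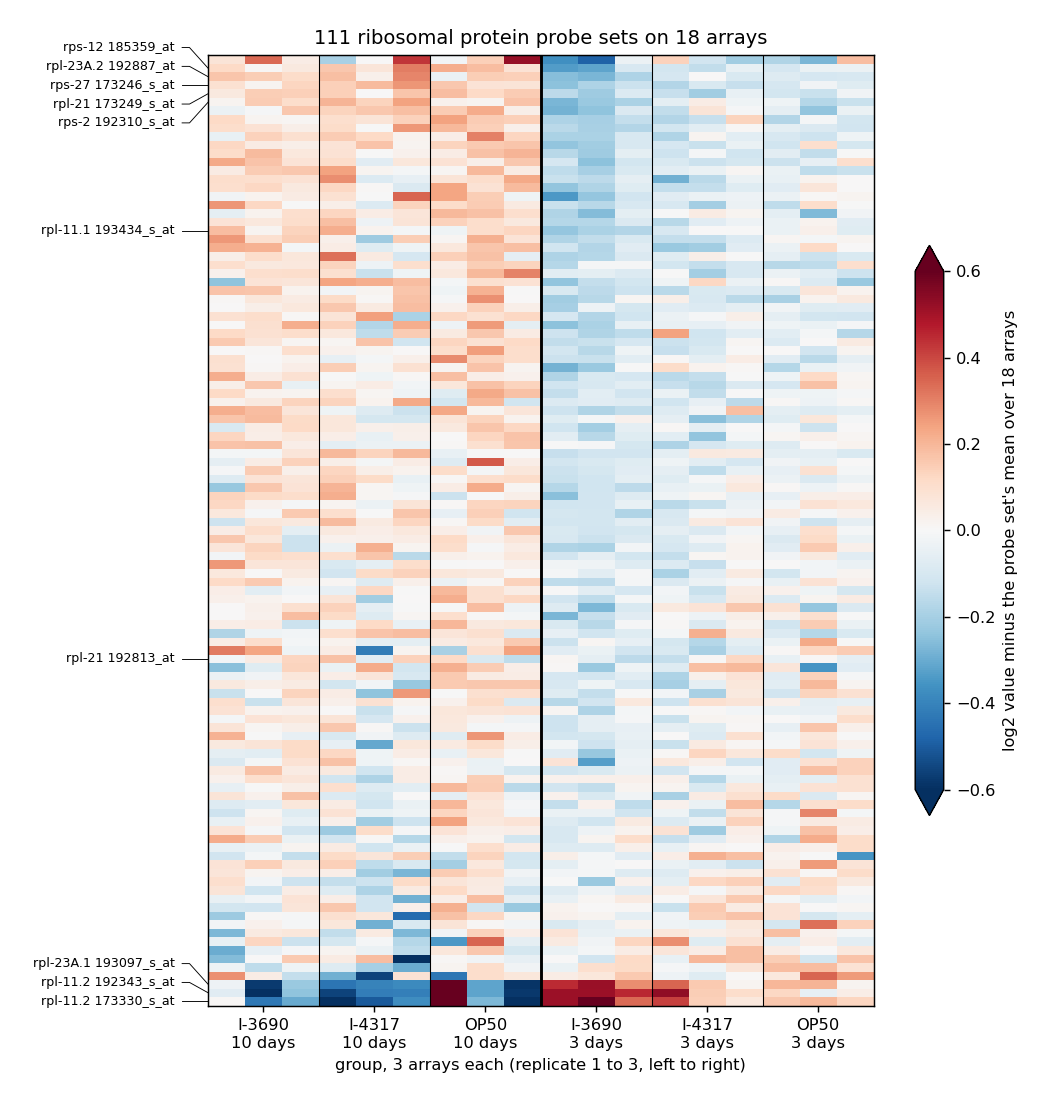
Heat map of the 111 ribosomal protein probe sets (rows, ordered by the mean difference between 10 and 3 days) on the 18 arrays (columns, 10-day groups on the left), coloured by the log2 value minus the probe set's mean. Most rows are slightly above their mean at 10 days and below it on CNCM I-3690 at 3 days, while the 3 X-linked rows at the bottom run the other way, except on 1 array of OP50 at 10 days.

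The diets were compared first in young worms. On CNCM I-3690 against OP50 at 3 days, no member was called at adjusted p under 0.10 (limma, adjusted over all 22625 probe sets), while 6.12% of all probe sets were. Only 2 members, both of *rpl-10a*, the large-subunit protein of the L1 stalk, had an unadjusted p under 0.05, as did 18.4% of all probe sets. Their log2 differences were -0.20 and -0.23 (adjusted p 0.231 and 0.237), while the third probe set of the gene was at 0.036 (p 0.793). The median difference of the members was -0.092 and that of all probe sets -0.046, and 13 of 111 members were positive. In 37 of the 111 members every array on CNCM I-3690 lay below every array on OP50, as in 13.1% of all probe sets, and in 3 members every array lay above, as in 10.3%. The per-array member median was 10.02, 10.04 and 10.08 on CNCM I-3690, against 10.11, 10.19 and 10.15 on OP50 (means 10.05 ± 0.034 and 10.15 ± 0.038, SD, n = 3 each). All 3 arrays on CNCM I-3690 lay below the 3 on OP50, where the SD of this median within a group, pooled over the 6 groups, was 0.0423. The sign of this small shift depended on the scaling, since the median was 0.039 after cyclic loess and -0.139 after centring each array on its median.

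The 3 members that lay above OP50 on every array at 3 days were the X-linked probe sets. On CNCM I-3690, the brighter probe set of *rpl-11.2* was at 9.16, 9.16 and 9.10, against 8.77, 8.60 and 8.69 on OP50. The log2 differences were 0.45, 0.32 and 0.27 for the brighter and the dimmer probe set of *rpl-11.2* and for *rpl-23A.1*, with adjusted p of 0.359, 0.522 and 0.61. None was called, but the brighter probe set of *rpl-11.2* passed in the fit to the 9 arrays of 3 days (adjusted p 0.0922) and without replicate 1 of OP50 at 10 days, an array that enters only through the shared estimate of spread (adjusted p 0.0776). At 10 days none of the 3 was called, the arrays overlapped those on OP50, and the values rested on replicate 1 of OP50. With all arrays, the log2 differences on CNCM I-3690 were -0.29, -0.15 and -0.23 (adjusted p 0.94, 0.987 and 0.958) for the same probe sets in the same order, and without that array they were 0.14, 0.25 and 0.18 (adjusted p 0.953, 0.83 and 0.909). CNCM I-4317 gave -0.44, -0.42 and -0.36 with all arrays (adjusted p 0.567, 0.566 and 0.639) and -0.01, -0.02 and 0.05 without that array (adjusted p 0.988, 0.982 and 0.967), an alternative added after the data were seen.

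The other comparisons of diets gave no called member. On CNCM I-4317 against OP50 at 3 days the median was -0.031, 3 members had an unadjusted p under 0.05 (9.8% of all probe sets did), and 0.115% of all probe sets were called. With the Lactobacillus diets set against each other at 3 days, the median of CNCM I-3690 over the other strain was -0.054, with 4 members at an unadjusted p under 0.05 (8.99% of all probe sets) and 0.119% of all probe sets called. At 10 days the medians were -0.032 for CNCM I-3690 against OP50, -0.070 for CNCM I-4317 against OP50 and 0.028 for CNCM I-3690 over the other Lactobacillus, where 0.539%, 0.937% and 0.0177% of all probe sets were called. In these 3 comparisons 0, 8 and 7 members had an unadjusted p under 0.05, as did 7.28%, 10.7% and 7.22% of all probe sets. The lowest p of a member at 10 days was that of 1 probe set of *rps-17*, a small-subunit protein named after its values were seen. It was lower on CNCM I-4317 than on OP50 by a log2 difference of -0.28 (p 0.00827, adjusted p 0.256) with no overlap of the arrays, while the other probe set of the gene was at -0.09 (p 0.352) with overlapping arrays.

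A missed threshold does not show that a gene is unaffected, so the intervals are given. The 95% interval of a difference between 2 groups had a median half-width of 0.192 log2 units over the members. On CNCM I-3690 against OP50, the interval lay within ±0.5 for 107 of 111 members at 3 days and for 108 at 10 days. Those that did not were *rpl-11.2*, *rpl-23A.1* and, at 3 days, a probe set of *rpl-12*. The intervals hold for the deposited scale and do not cover a shift of the members that the scaling of the arrays adds or removes. At 3 days the member median of this comparison ran from -0.139 to 0.039 over the alternatives.

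**Figure D2:**
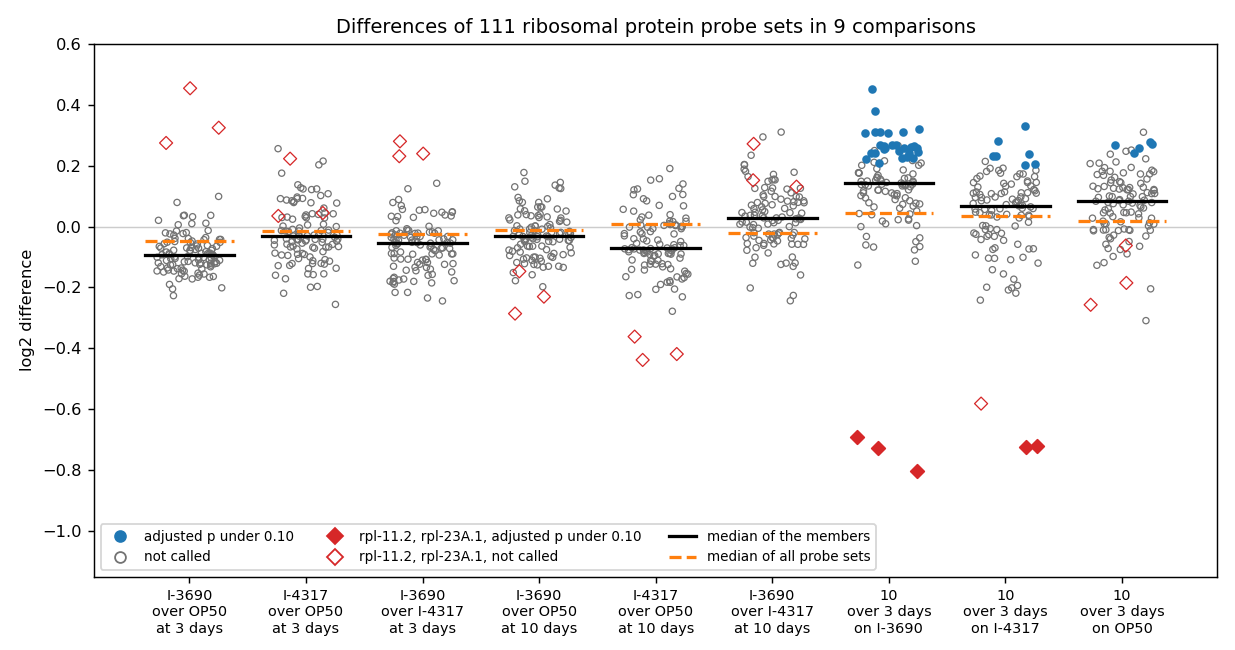
Log2 difference of each ribosomal protein probe set (points) in the 6 comparisons of diets and the 3 comparisons of days, with the median of the members (black line) and of all probe sets (dashed orange line). No member passed in a comparison of diets, and between days the probe sets of rpl-11.2 and rpl-23A.1 (diamonds) lay below all other members on both Lactobacillus diets.

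Between 10 and 3 days, many members rose on CNCM I-3690 on the deposited scale, though not after cyclic loess, which gave 1 higher and 5 lower. Of 111, 28 were higher, 3 lower and 80 not called, where 17.3% of all probe sets were called higher and 12.6% lower. An unadjusted p under 0.05 was found in 38 members (34.2%), near the 33.5% of all probe sets. The median difference was 0.143, against 0.044 for all probe sets, and 98 members were positive. In 66 members every 10-day array lay above every 3-day array, as in 23.6% of all probe sets. The 144 other probe sets above 9 moved more and in both directions, with 67 higher, 29 lower and a median of 0.230, so the median of the members was below that of other bright probe sets. Of the small-subunit probe sets 10 of 45 rose and none fell (41 were positive, and 15 had an unadjusted p under 0.05, where 33.5% of all probe sets did), and of the large-subunit probe sets 18 of 66 rose and 3 fell. Fewer members passed without 1 array of this diet: 12 higher and 2 lower without replicate 1 of 3 days, 10 and 1 without replicate 2 of 3 days, and 15 and 0 without replicate 2 of 10 days.

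Small-subunit members that rose on CNCM I-3690 included *rps-2*, *rps-16*, *rps-12* and *rps-9*. *rps-2*, whose product sits at the entry of the messenger RNA channel, was at 10.36, 10.50 and 10.45 at 10 days, against 10.07, 10.12 and 10.16 at 3 days. The groups did not overlap, and the log2 difference was 0.32 ± 0.08 (SE, n = 3 each, limma adjusted p 0.00816). *rps-16* (log2 difference 0.31, adjusted p 0.0156), *rps-12* (0.31, 0.0185) and *rps-9* (0.27, 0.0267) rose by like amounts. The other probe sets of *rps-16* (0.13, adjusted p 0.402) and of *rps-9* (0.073, adjusted p 0.747) were not called.

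Among large-subunit members, the largest rise of a bright probe set was that of *rpl-23A.2*. It encodes the protein that lines the exit of the peptide tunnel, where the signal recognition particle docks. It was at 10.85, 10.83 and 10.79 at 10 days, against 10.43, 10.40 and 10.49 at 3 days, a log2 difference of 0.38 ± 0.09 (SE, n = 3 each, limma adjusted p 0.00398). This call was kept in all 28 alternatives run at the same threshold of adjusted p, cyclic loess included. *rpl-11.1*, whose product binds the 5S ribosomal RNA, rose by 0.31 (adjusted p 0.0145), *rpl-6* by 0.31 (0.0165), *rpl-27A* by 0.31 (0.0256) and *rpl-13* by 0.27 (0.0355). The nominally largest rise, 0.45 (adjusted p 0.0888), was that of the dim probe set of *rpl-12* named above. The 2 brighter probe sets of that gene were not called.

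On CNCM I-4317, fewer members passed: 7 were higher and 2 lower, where 15.4% and 10.0% of all probe sets were called. An unadjusted p under 0.05 was found in 14 members (12.6%), against 30.7% of all probe sets. The median difference was 0.068, against 0.034 for all probe sets, and in 27 members the groups did not overlap upwards, as in 19.2% of all probe sets. *rps-27*, a zinc-binding small-subunit protein, was at 10.73, 10.78 and 10.85 at 10 days, against 10.42, 10.50 and 10.45 at 3 days (log2 difference 0.33 ± 0.08, SE, n = 3 each, limma adjusted p 0.00529). The others were *rps-12* (0.28), *rps-21* (0.24), *rpl-21* (0.23), *rpl-23A.2* (0.23), *rps-2* (0.21) and 1 of the probe sets of *rpl-24* (0.20), with adjusted p between 0.037 and 0.0928. The other probe sets of *rps-21* (0.17, adjusted p 0.29) and *rpl-24* (0.18, adjusted p 0.158) were not called. The rise of *rps-27* was called in all 27 alternatives run at this threshold. The calls of the set were fewer without replicate 1 or 2 of 3 days (2 and 4 in all) and without replicate 1 or 3 of 10 days (5 and 2).

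On OP50, 5 members were higher and none lower, where 5.41% and 5.37% of all probe sets were called. 16 members had an unadjusted p under 0.05, as did 19.4% of all probe sets. The median difference was 0.083, against 0.019 for all probe sets, and 34 members had 10-day arrays above all 3-day arrays, as in 12.3% of all probe sets. The 5 were 1 of the probe sets of *rpl-15* (log2 difference 0.28, adjusted p 0.0787), *rps-4* (0.27, 0.0741), 1 of the probe sets of *rpl-31* (0.27, 0.0491), *rps-3A* (0.26, 0.0987) and *rpl-21* (0.24, 0.0904). The other probe sets of *rpl-15* (0.10, adjusted p 0.684) and *rpl-31* (0.15 and -0.03, adjusted p 0.383 and 0.929) were not called. The called probe set of *rpl-31* was at 10.93, 10.78 and 10.76 at 10 days, against 10.58, 10.49 and 10.60 at 3 days, with no overlap. These calls rested on single arrays. Without replicate 1, 2 or 3 of OP50 at 3 days, 0, 2 and 2 members were called, and without replicate 2 or 3 at 10 days 1 was called each time. Leaving out replicate 1 or 2 of CNCM I-3690 at 3 days, or replicate 2 or 3 of it at 10 days, which enter only through the shared spread, left 3. After cyclic loess, and in a fit to the 6 OP50 arrays alone, 0 were called.

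The general rise depended on how the arrays were scaled. With the values as deposited, 28 members were higher on CNCM I-3690. Centring each array on its median gave 59 higher, and centring on the median of brighter probe sets that are no members gave 28. Cyclic loess, which removes differences between arrays that depend on brightness, gave 1 higher and 5 lower. Shares of all probe sets called are given here for the deposited scale only, so the counts under other scalings have no background beside them. The median of all probe sets on CNCM I-3690 was 0.044 as deposited, 0.133 after centring on the array median and 0.001 after cyclic loess. The median of the members on CNCM I-3690 was 0.233 after centring on the array median and -0.026 after cyclic loess. On CNCM I-4317 the corresponding medians were 0.131 and 0.001, and on OP50 0.096 and 0.039. The rises of *rps-2*, *rps-16*, *rps-12*, *rps-9*, *rpl-11.1*, *rpl-6*, *rpl-27A* and *rpl-13* on CNCM I-3690 were not called after cyclic loess, though their signs stayed positive. *rpl-23A.2* was still called there.

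**Figure D3:**
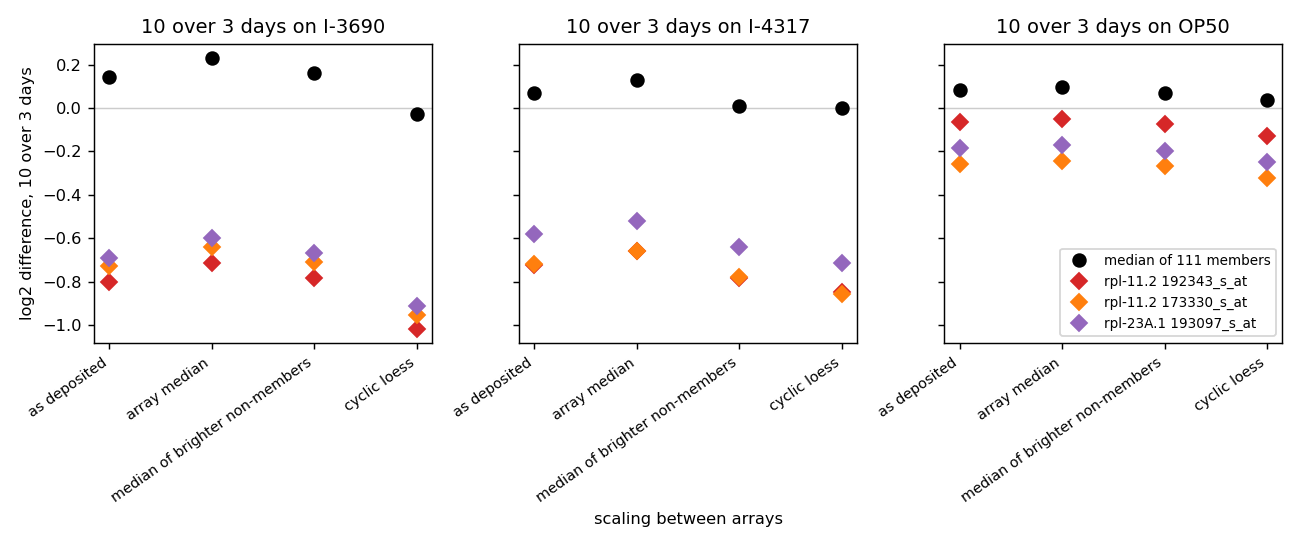
Log2 difference between 10 and 3 days under 4 scalings of the arrays (x axis), for the median of the 111 members (black circles) and the 3 X-linked probe sets (diamonds), on each diet. On CNCM I-3690 the member median is 0.143 as deposited and -0.026 after cyclic loess, while the diamonds lie at or below -0.60 under every scaling.

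The genes that fell were both X-linked, and on CNCM I-3690 their 3 probe sets were called lower under all 4 scalings. The brighter probe set of *rpl-11.2* was at 8.58, 8.03 and 8.41 on CNCM I-3690 at 10 days, against 9.16, 9.16 and 9.10 at 3 days, a log2 difference of -0.80 ± 0.25 (SE, n = 3 each, limma adjusted p 0.0273) and a ratio of 0.573. The dimmer probe set fell by 0.73 (adjusted p 0.035), and *rpl-23A.1* fell by 0.69 (adjusted p 0.0471), to 8.49, 7.95 and 8.29 at 10 days, against 8.97, 9.04 and 8.80 at 3 days. In each case the groups did not overlap.

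The same probe sets stood out on CNCM I-4317. *rpl-11.2* fell by 0.72 on both probe sets (adjusted p 0.0531 for the brighter and 0.0439 for the dimmer). The brighter was at 8.09, 8.23 and 8.23 at 10 days, against 9.18, 8.80 and 8.75 at 3 days. *rpl-23A.1* had a log2 difference of -0.58 and missed the threshold (adjusted p 0.108). It was at 8.08, 8.12 and 8.14 at 10 days, against 8.87, 8.68 and 8.54 at 3 days, again with no overlap. Single arrays decided some of these calls. On CNCM I-3690 the adjusted p of the brighter and the dimmer probe set of *rpl-11.2* and of *rpl-23A.1* was 0.127, 0.128 and 0.191 without replicate 2 of 10 days. Without replicate 2 of 3 days it was 0.117 for the dimmer and 0.141 for *rpl-23A.1*, and without replicate 1 of 3 days it was 0.118 for *rpl-23A.1*. On CNCM I-4317 the adjusted p of the brighter and the dimmer was 0.194 and 0.155 without replicate 1 of 3 days and 0.137 and 0.134 without replicate 1 of 10 days. Without replicate 3 of 10 days that of the brighter was 0.1, and its call was lost. The signs were negative in every alternative run on both diets, and *rpl-23A.1* on CNCM I-4317 was called without replicate 1 of OP50 at 10 days (adjusted p 0.00496).

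On OP50, the X-linked probe sets were not called between days, and a single array decided this. The brighter probe set of *rpl-11.2* was at 9.47, 8.33 and 8.07 at 10 days, against 8.77, 8.60 and 8.69 at 3 days, and *rpl-23A.1* was at 9.29, 8.20 and 7.93, against 8.72, 8.73 and 8.53. The high value is that of replicate 1 in each case, and the other 10-day arrays lay below all 3-day arrays. With all arrays, the differences were -0.06, -0.26 and -0.18 (adjusted p 0.941, 0.645 and 0.765) for the brighter and the dimmer probe set of *rpl-11.2* and for *rpl-23A.1*. Without replicate 1 of OP50 at 10 days they were -0.49, -0.65 and -0.59 (adjusted p 0.0661, 0.0146 and 0.0183), so that all 3 were called, while the members called higher on OP50 went down to 2. On that array the muscle list was high, as given above, as were the 6 hypodermis and cuticle probe sets (mean log2 2.51, against 1.49 and 1.17 on the other arrays of the group). The 18 oocyte and eggshell probe sets were low on it (8.30, against 8.57 and 8.72). The part of these genes in the result was not tested.

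Each X-linked gene has an autosomal copy among the members, and the copies moved apart. *rpl-11.1*, on chromosome V, was at 10.21, 10.04 and 10.16 on CNCM I-3690 at 10 days, against 9.79, 9.83 and 9.85 at 3 days, while *rpl-11.2* fell. *rpl-23A.2*, on chromosome I, rose while *rpl-23A.1* fell. A difference between 2 probe sets of the same array is not changed by centring, so the distance between the copies was taken on each array and its change with days tested by permuting the arrays within each diet. The distance from *rpl-11.2* up to *rpl-11.1* grew by 0.70 log2 units with the brighter probe set (exact permutation test, two-sided, p 0.006) and by 0.74 with the dimmer (p 0.0025), as a mean over the diets. That from *rpl-23A.1* up to *rpl-23A.2* grew by 0.75 (exact permutation p 0.00175). On both Lactobacillus diets every 10-day array exceeded every 3-day array in these distances, and on OP50 the groups overlapped. The smallest p this test allows is 0.00025.

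A further pair of copies, *rpl-41.2* and *rpl-41.1*, which encode the smallest ribosomal protein, lies on chromosome I. Its distance also grew, by 0.25 (exact permutation p 5e-04), with no overlap on CNCM I-3690 and OP50. Neither gene was called on any diet, and their log2 differences on CNCM I-3690 were 0.25 for *rpl-41.2* and -0.03 for *rpl-41.1*. After adjustment over the 4 distances tested, p was 0.006, 0.00333, 0.00333 and 0.002, in the order given. The tests were chosen after the values were seen. Over leaving out each array in turn, the exact p of the 4 distances stayed between 0.00025 and 0.0177. All probe sets of these pairs except that of *rpl-23A.2* carry a suffix letter in their name, which marks probe sets that can bind related transcripts, so a shared signal between copies cannot be told apart from the level of each.

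**Figure D4:**
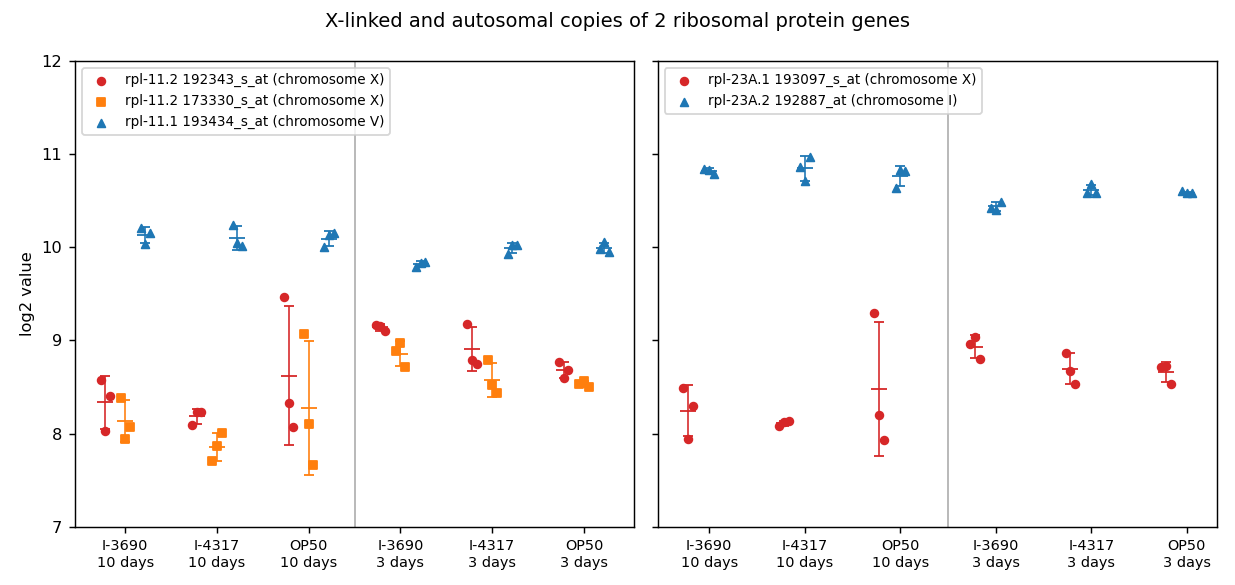
Log2 values on each array (points) with the mean and SD of each group (bars, n = 3) for the X-linked rpl-11.2 (2 probe sets) and the autosomal rpl-11.1 on the left, and the X-linked rpl-23A.1 and the autosomal rpl-23A.2 on the right. The X-linked genes lie lower at 10 than at 3 days on every array of the Lactobacillus diets, and on OP50 the highest value of each X-linked probe set is that of replicate 1 at 10 days.

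The X-linked genes also moved together from array to array. Over the 9 arrays of 10 days, the brighter probe set of *rpl-11.2* and *rpl-23A.1* correlated at Pearson's r = 0.996 (exact permutation p 1.65e-05, adjusted over 4 relations 6.61e-05) and Spearman's rho = 0.983 (exact permutation p 4.96e-05, adjusted 0.000198). Without the 2 arrays farthest from the median, r was 0.954. Over the 9 arrays of 3 days, r was 0.826 (exact permutation p 0.00805, adjusted 0.0107), rho was 0.75 (exact permutation p 0.0255, adjusted 0.0492), and r was 0.771 without the 2 farthest arrays. Their autosomal copies *rpl-11.1* and *rpl-23A.2* had r = 0.281 at 10 days (exact permutation p 0.473, adjusted 0.473; rho = 0.3, exact permutation p 0.437, adjusted 0.437; r = -0.19 without the 2 farthest arrays) and r = 0.876 at 3 days (exact permutation p 0.00488, adjusted 0.00976; rho = 0.717, exact permutation p 0.0369, adjusted 0.0492; r = 0.721 without them). The arrays at each time include the 3 diets, so differences between diets enter these relations. The X-linked pair was chosen after its values on these same arrays were seen, and both genes were high on replicate 1 of OP50 at 10 days. The p-values of that pair are therefore not an independent test of the relation.

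Probe sets placed on the X chromosome were counted for comparison, on the deposited scale only and with no test. The ribosomal protein members were not set apart in these counts. On CNCM I-3690, 543 of 3036 X-linked probe sets with 1 gene were lower at 10 days and 319 higher, against 2114 lower and 3390 higher of 17657 placed on other chromosomes. The medians were -0.014 and 0.057. On CNCM I-4317 the X-linked counts were 463 lower and 309 higher, against 1642 and 3022 elsewhere, and on OP50 268 lower and 135 higher, against 863 and 1026. More X-linked probe sets were lower than higher on each diet, and the differences of *rpl-11.2* and *rpl-23A.1* had the same sign. On CNCM I-3690 the falls of these genes were far larger than the X-linked median of -0.014. Centring each array on its median moved the median of all probe sets on that diet from 0.044 to 0.133. A link between the chromosome and these falls was not tested.

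The difference between days was alike on the 3 diets in its rank over members. Over the 111 members, the log2 differences on CNCM I-3690 and CNCM I-4317, which share no arrays, had Pearson's r = 0.87 and Spearman's rho = 0.70. The same values were 0.56 and 0.54 for CNCM I-3690 and OP50, and 0.56 and 0.51 for CNCM I-4317 and OP50. Without the 3 X-linked probe sets, r was 0.70, 0.51 and 0.48. Members are not independent, as all are read on the same arrays, so these values are a description. 64 members were positive on all 3 diets and 7 on none, against 32.4% and 21.7% of all probe sets. 6 probe sets (5.41% of the members) rose on at least 2 diets, as did 12.2% of all probe sets: *rpl-21* on all 3, and *rps-27*, *rpl-15*, *rps-12*, *rps-2* and *rpl-23A.2* on 2. The probe set of *rpl-21*, the brightest member, was at 10.94, 11.03 and 11.02 on CNCM I-3690 at 10 days, against 10.72, 10.67 and 10.80 at 3 days. On CNCM I-4317 it was at 11.02, 10.88 and 11.04, against 10.74, 10.67 and 10.84, and on OP50 at 11.06, 11.001 and 11.03, against 10.77, 10.74 and 10.86. On each diet its 10-day arrays lay above its 3-day arrays, while the other probe set of the gene was not called on any diet (log2 differences 0.12, 0.087 and -0.012).

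**Figure D5:**
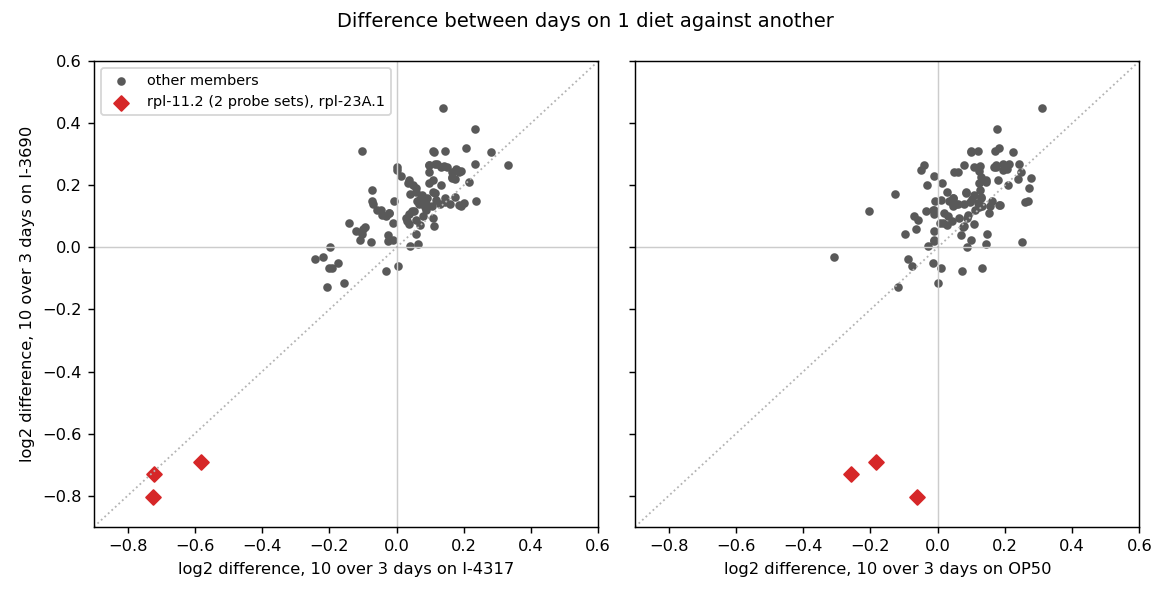
Log2 difference between 10 and 3 days of each member on CNCM I-3690 (y axis) against that on CNCM I-4317 (left) and OP50 (right), with the line of equal differences dotted. The X-linked probe sets (diamonds) lie apart from the 108 others on the left, and on the right, at -0.06, -0.26 and -0.18 on OP50, they are set apart by their values on CNCM I-3690.

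No member passed the test of whether the difference between days itself differed between diets. For CNCM I-3690 against OP50 the median of that difference was 0.061, with 3 members at an unadjusted p under 0.05 (13.1% of all probe sets), and 0.809% of all probe sets were called. For CNCM I-4317 against OP50 it was -0.014, with 2 such members (9.66% of all probe sets) and 0.230% called, and for CNCM I-3690 over the other Lactobacillus it was 0.078, with 1 such member (5.43%) and 0% called. The larger number of rises on CNCM I-3690 is thus not shown to differ from that on the other diets. The lowest p was that of *rpl-6*, a large-subunit protein, between the Lactobacillus diets (log2 difference 0.41, p 0.00443, adjusted p 0.678). It was at 10.22, 10.19 and 10.08 on CNCM I-3690 at 10 days, against 9.88, 9.82 and 9.85 at 3 days, and at 9.98, 9.93 and 9.88 on CNCM I-4317 at 10 days, against 9.93, 9.98 and 10.19 at 3 days. For the brighter probe set of *rpl-11.2* the difference between CNCM I-3690 and OP50 was -0.74 (adjusted p 0.39), and it shrank to -0.32 without replicate 1 of OP50 at 10 days (adjusted p 0.615).

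Genes with several probe sets gave a check of the calls. 32 genes had more than 1. On CNCM I-3690 the difference between days spanned a median of 0.102 log2 units over the probe sets of a gene, close to the SE of a single one. In 15 of the 32 genes some probe set was called, and in 2 of them all were: *rpl-10L* and the X-linked *rpl-11.2*. *rpl-10L* and *rpl-10a* share a number but encode unrelated proteins of the large subunit. With the probe sets of each gene averaged, 22 of 75 genes rose and 2 fell on CNCM I-3690. The share of all genes called under this averaging is not given, so this count has no background beside it.

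Other parts of the protein-making machinery were read beside the members on the deposited scale, the only scale on which these lists were tested. Of all probe sets, 17.3% were called higher and 12.6% called lower with CNCM I-3690. The shares were 15.4% and 10.0% with CNCM I-4317 and 5.41% and 5.37% with OP50. The elongation factors, which move the ribosome along the message, had 6 of 15 probe sets higher and 2 lower at 10 days on CNCM I-3690. The counts were 3 and 2 with CNCM I-4317 and 2 and 0 with OP50. On CNCM I-3690 the lower probe sets were both of *iff-2* (log2 differences -1.25 and -0.81, adjusted p 0.00556 and 0.0127). They were also called lower on CNCM I-4317 (-0.92 and -0.64, adjusted p 0.0393 and 0.0499). The largest rise on CNCM I-3690 was that of *iff-1* (0.44, adjusted p 0.00581). *iff-1* and *iff-2* encode 2 forms of the factor eIF5A. The aminoacyl-tRNA synthetases, which charge tRNA, had 3 of 44 higher and 6 lower on CNCM I-3690, with *iars-1* at -0.57 (adjusted p 0.00368). For them the counts were 1 and 6 with CNCM I-4317 and 0 and 0 with OP50. Initiation factors had 9 of 38 higher and 2 lower, led by *eif-3.I* at 1.43 and 1.32 (adjusted p 0.000135 and 0.000959), which rose on all 3 diets.

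The genes of the mitochondrial ribosome were read by 65 probe sets. Of these, 5 were higher and 15 lower at 10 days on CNCM I-3690. The counts were 4 and 13 with CNCM I-4317 and 0 and 4 with OP50, where 4 of 65 is near the share of all probe sets, and the 3 diets had medians of -0.13, -0.17 and -0.03. *mrpl-44* fell on all 3 diets, by 1.23, 1.20 and 0.87 (adjusted p 3.3e-06, 5.45e-06 and 0.000228). Ribosome biogenesis genes had 5 of 30 higher and 2 lower on CNCM I-3690. With CNCM I-4317 the counts were 7 and 4, and with OP50 they were 1 and 2. The nucleolar gene *nol-56* fell by 0.63 and 0.58 on CNCM I-4317 (adjusted p 0.000257 and 0.00123). On OP50 the same probe sets fell by 0.34 and 0.50 (adjusted p 0.042 and 0.00831). Rises on CNCM I-4317 included *nol-9* (0.81, adjusted p 0.000882) and *rpoa-12* (0.63, adjusted p 0.000523). Both were also called higher on CNCM I-3690, by 0.59 and 0.43 (adjusted p 0.00668 and 0.0071). Of 14 probe sets of the TOR pathway, which controls ribosome production, 3, 4 and 1 were higher on the 3 diets in the same order. *rict-1*, which encodes a TORC2 subunit, was among them on each, at 1.23, 1.40 and 0.77 (adjusted p 3.4e-06, 1.17e-06 and 0.000671). Proteasome subunits, another large complex, had 9 of 39 higher and 1 lower on CNCM I-3690, with a median of 0.18. Their counts were 4 and 1 with CNCM I-4317 and 1 and 1 with OP50. Of the 5 probe sets of the stalk, ubiquitin fusion and RACK1 list, 2 were higher on CNCM I-3690: *rpa-2*, of the ribosomal stalk (0.30, adjusted p 0.0738), and *rack-1*, which binds the small subunit (0.23, adjusted p 0.077).

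Lists of tissue genes moved with days on the same arrays, and their part in the changes of the members was not tested. On CNCM I-3690, 17 of 18 oocyte and eggshell probe sets were higher at 10 days and none was lower. Of the germ line list 7 of 14 were higher and 2 lower. Among 20 muscle probe sets none was higher and 18 were lower. Lower were also 27 of 30 sperm probe sets and all 6 hypodermis and cuticle probe sets. Of the intestine list 3 of 12 were higher and 6 lower, and of the neuron list 2 of 17 were higher and 7 lower. The summed linear level of the oocyte and eggshell list was 10400.2 to 11305 on CNCM I-3690 at 10 days, against 6216 to 6977 at 3 days. On CNCM I-4317 it was 10412 to 11765, against 6480.5 to 8211, with 14 of 18 higher. On OP50 it was 9030.1 to 12126, against 8484 to 8599, with 3 of 18 higher.

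The muscle list summed to 546 to 865 on CNCM I-3690 at 10 days, against 1866 to 2240.5 at 3 days, to 447 to 567 on CNCM I-4317, against 1532 to 1896, and to 331 to 1004 on OP50, against 1581 to 1602. The sperm list summed to 94.5 to 1569 on CNCM I-3690 at 10 days, against 9037 to 18409 at 3 days. On CNCM I-4317 it summed to 102 to 1115, against 3815 to 15335, and on OP50 to 91.8 to 137, against 693 to 2117. At 3 days, 22 of 30 sperm probe sets were higher on CNCM I-3690 than on OP50 and 3 of 18 oocyte and eggshell probe sets were lower, in the comparison in which no ribosomal protein gene was called. Of the 5 early embryo probe sets, 3 lay below the array medians in each group.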

How the data were processed

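Total RNA of whole worms was labelled by 3′ in vitro transcription and hybridised to the GeneChip C. elegans Genome Array, 3 arrays in each of 6 groups. The authors deposited log2 values after background correction, quantile normalization and summarisation by robust multi-array averaging, which makes arrays alike in distribution and can hide a change shared by most probe sets. Scanner files were not used here. Probe sets were named from the platform annotation: 20766 carried 1 symbol, 887 several and 972 none. Chromosomes came from RefSeq (WBcel235), where all 75 member genes matched. Group means were fitted over the 18 arrays together with limma 3.58.1 in R 4.3.3 (12 residual and 4.09 prior degrees of freedom), and 12 contrasts were tested with Benjamini-Hochberg adjustment over 22625 probe sets. A probe set was called at adjusted p under 0.1. The fit was tested on simulated data. For arrays, the number of arrays limits the precision.

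Genes were named by rule: up to 10 rises and 10 falls among called members of a comparison, members that share a number, the 3 highest and 3 lowest by mean, the 3 least correlated with the member median, and up to 4 called probe sets of each pathway list. The members, lists and tests were chosen with earlier results of these data known. The permutation tests of gene pairs and the correlations across arrays were added after seeing the data. Alternatives covered the threshold, scaling, filters on low values and on probe set type, the samples fitted, a replicate block and leaving out each array.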

Additional observations from a re-analysis of the deposited data

How the results depend on the processing

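Comparisons of diets kept 0 called members under the alternatives run, except CNCM I-3690 against OP50 at 3 days, where 1 was called with only the arrays of the same time, and 0 to 1 when an array was left out. The count called between days was 31 on CNCM I-3690, 9 on CNCM I-4317 and 5 on OP50, and it ranged over 11 to 34, 2 to 12 and 0 to 5 when an array was left out. On CNCM I-3690 it was 2 at adjusted p under 0.01, 62 with arrays centred on their median, 6 after cyclic loess and 9 with only probe sets without a suffix letter. On CNCM I-4317 it was 3 at adjusted p under 0.05, 1 under 0.01, 17 with arrays centred on their median, 3 without suffix letters and 4 with only the arrays of the diet. On OP50 it was 1 under 0.05, 0 under 0.01, 2 with arrays centred on their median, 0 after cyclic loess, 2 with centring on other bright probe sets, 8 with a trended, robust prior, 3 with only probe sets above the 40th percentile, 0 without suffix letters, 2 with the probe sets of a gene averaged and 0 with only the arrays of the diet.

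By the correlation of their deviations, the arrays were not clearly paired by replicate number. Of 45 pairs with the same number 15 were correlated above 0.1, and 6 of 18 arrays correlated best with their own number. Some values did follow the number: the mean log2 value of the sperm list was lowest on replicate 3 in each group. At 3 days it was 7.79, 7.78 and 6.64 for replicates 1 to 3 on CNCM I-3690, and 4.87, 3.87 and 3.61 on OP50. A pairing is thus not excluded. With the replicate number as a block, the counts were 29 on CNCM I-3690, 7 on CNCM I-4317 and 3 on OP50.

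The member median moved with scaling. With arrays centred on their median it was -0.139 for CNCM I-3690 against OP50 at 3 days, 0.233 between days on CNCM I-3690, 0.131 between days on CNCM I-4317, and 0.138 and 0.036 for the difference of these from OP50. After cyclic loess it was 0.039, 0.014 and 0.026 for the 3-day comparisons of CNCM I-3690 with OP50, CNCM I-4317 with OP50 and the Lactobacillus diets with each other, -0.026, 0.0011 and 0.039 between days on CNCM I-3690, CNCM I-4317 and OP50, and -0.064 and -0.030 for the difference of CNCM I-3690 from OP50 and from CNCM I-4317. With centring on other bright probe sets it was -0.139 and -0.122 at 3 days for CNCM I-3690 over OP50 and over the other strain, 0.0084 between days on CNCM I-4317, -0.061 for the difference of CNCM I-4317 from OP50 and 0.158 for that of CNCM I-3690 from CNCM I-4317. The cause was not tested.

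Without each array in turn, the difference between days on OP50 ranged over -0.651 to 0.0504 and -0.49 to 0.22 for the dimmer and the brighter probe set of *rpl-11.2* and over -0.593 to 0.0864 for *rpl-23A.1*. The lowest values were without replicate 1 of 10 days and the highest without replicate 3, and the brighter probe set of *rpl-11.2* was also positive, at 0.08, without replicate 2. The difference of CNCM I-4317 from OP50 for *rpl-23A.1* ranged over -0.668 to 0.0115, the highest being without replicate 1 of OP50 at 10 days.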

Other observations

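The 3 probe sets that hold an rpl- symbol beside another symbol were not members. The probe set shared by *rpl-7A* and Y73B3A.18 had log2 differences between 10 and 3 days of 0.24 on CNCM I-3690 (limma adjusted p 0.0727) and 0.28 on OP50 (adjusted p 0.0867), and was called higher on both. The others were shared by *rpl-8* and B0250.3 and by *rpl-37.1* and *rpl-37.2*.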
